A study of Arabidopsis thaliana with 6 samples.

Results

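The basic helix-loop-helix (bHLH) genes of *Arabidopsis thaliana* were examined for nearby regions bound by LEAFY (LFY), the transcription factor that starts flower development, and by LFYTERE, a LFY version impaired in oligomerization. A gene was counted as a member when its symbol or a synonym was a numbered bHLH name, which gave 22 of 27444 protein-coding genes on the 5 chromosomes. The rule covers only part of the family, because many bHLH genes carry another name, and 72 of those were followed beside the members from a list of family genes grouped by role. Chromatin immunoprecipitation followed by sequencing had been done with an antibody against the C-terminal part of LFY on whole seedlings aged 15 days, with 6 libraries in all. The 3 genotypes were p35S:LFYTERE, p35S:LFY and the wild type Col-0, with 2 biological replicates each. Both transgenes carry the LFY cDNA under the constitutive 35S promoter, and in LFYTERE the substitutions T75E and R112E alter the SAM domain, through which LFY molecules associate. Plants heterozygous for lfy-12 were used for transformation in the study, and the sources used here do not state whether these lines carry that allele. Each transgene was represented by 1 line, so that line and construct cannot be told apart, and LFY was present in cells that do not normally express it. According to the sample labels, seedlings of the 3 genotypes were grown on plates in long days at 23 °C. The comparison asks where binding depends on LFY oligomerization.

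The deposited list of each transgenic genotype holds regions that passed in each comparison of a replicate with a Col-0 library, 176 for p35S:LFYTERE and 1954 for p35S:LFY. The 2 lists share their Col-0 controls, so overlap between them was counted without a test. Each region has a rank, where 1 is the best region of its list, and a CFR, short for coverage fold reduction, which divides read coverage in p35S:LFY by that in p35S:LFYTERE. A CFR above 1 therefore means less coverage in p35S:LFYTERE. The lists give 1 rank and 1 CFR per region and no value per replicate, and the CFR was computed after the replicates had been fused, so no replicate spread can be given. A region was given to a gene when its midpoint lay inside the gene or within 3 kb of it. The study had more mapped reads for p35S:LFY than for p35S:LFYTERE, and what this difference contributed to regions called in only one list was not tested.

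bHLH proteins pair through their helix-loop-helix part and, as dimers, contact short E-box sequences through the basic part. Some small members lack a working basic part, do not bind DNA themselves and act by pairing with other helix-loop-helix proteins. In plants the family controls iron uptake, light and hormone responses, vascular divisions, stomata, flavonoid pigments and the formation of floral organs. Among the 22 members, 11 belong to the iron network, 4 are small growth-promoting PRE proteins, also called BANQUO, 4 are relatives of the stomatal regulator FAMA, and 3 are single genes of other roles (TMO5, TT8 and BHLH92).

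In the p35S:LFYTERE list 1 of the 22 members, bHLH121, had a region within 3 kb, or 4.55% of members, while 1.49% of all protein-coding genes did. In the p35S:LFY list 8 of the 22 members had one, or 36.4%, while 13.5% of all genes did. The 8 genes were bHLH121, BHLH100, ILR3, bHLH34, PRE1, BNQ2, TMO5 and bHLH096. With so few members, the p35S:LFYTERE share stands for a single gene. No test of either share was made, and the differences from all genes are descriptions of this list of 22.

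**Figure D1:**
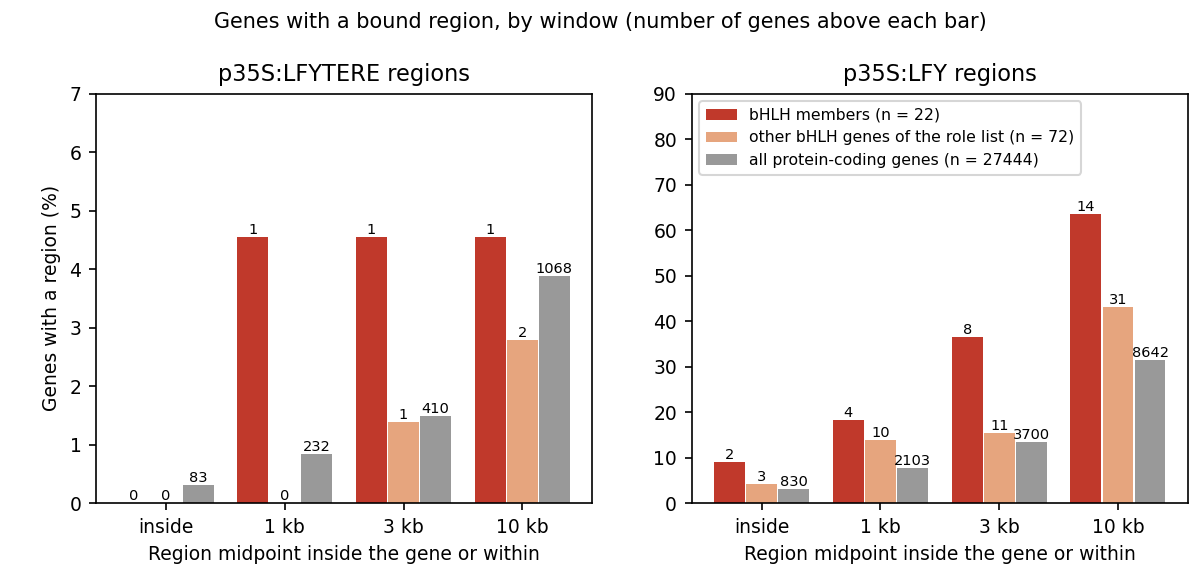
Share of genes (%) with a p35S:LFYTERE region (left) or a p35S:LFY region (right) inside the gene or within 1, 3 or 10 kb, for the 22 members, the 72 other bHLH genes of the role list and all 27444 protein-coding genes, with the number of genes above each bar and different vertical scales in the 2 panels. In p35S:LFY the members' share lies above that of all genes in each window, and it is 36.4% beside 13.5% at 3 kb.

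The members' share in p35S:LFY also lay above that of all genes in the other windows. A region midpoint fell inside the gene for 2 members (9.09%, beside 3.02% of all genes), within 1 kb for 4 (18.2%, beside 7.66%) and within 10 kb for 14 (63.6%, beside 31.5%). In p35S:LFYTERE, 0 members had a midpoint inside the gene (all genes 0.302%), and bHLH121 alone was counted within 1 kb (all genes 0.845%) and within 10 kb (all genes 3.89%). For the other 21 members the nearest p35S:LFYTERE region was 20.2 to 1040 kb away, with a median of 159 kb.

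Gene length and free space differ between genes and bear on how many regions a fixed window can catch. Members had a median length of 1810 bp, beside 2078 bp over all genes, and a median sum of 3295 bp of space to both neighbouring genes, beside 1855 bp. When all genes were split into 4 equal classes of length and their shares weighted to the members' classes, 1.5% were bound in p35S:LFYTERE and 13.2% in p35S:LFY. Weighted by 4 classes of free space, 1.45% were bound in p35S:LFYTERE and 14.0% in p35S:LFY. The 8 members bound in p35S:LFY came from the 2 classes with most free space, which held 6 and 10 members, and 4 of each were bound. Over all genes, 15.2% and 14.3% of these 2 classes were bound in p35S:LFY, beside 12.0% and 12.5% of the 2 classes with less space.

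Of the 11 iron members, 1 had a region in p35S:LFYTERE and 4 in p35S:LFY. The p35S:LFY share, 36.4%, was that of the 22 members as a whole, beside 13.5% of all genes. In this network ILR3 and its relatives bHLH34, bHLH104 and bHLH115, together with bHLH121, act upstream of BHLH100, BHLH101, bHLH38 and bHLH39, whose proteins pair with FIT to switch on iron uptake in the root. bHLH11 is known as a repressor of the response. In p35S:LFY, 1 of 4 genes of the bHLH38 group, 2 of 4 genes of the ILR3 group and bHLH121 had a region within 3 kb, while FIT and bHLH11 had none.

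bHLH121 (AT3G19860) was the only member with a region in both lists. The p35S:LFYTERE region, chr3:6906642-6906983, ranked 53 of 176 with a CFR of 3.36, which was at or above 76.7% of the CFR values of that list. The p35S:LFY region, chr3:6906607-6907180, ranked 66 of 1954 with a CFR of 4.02, a value at or above only 16.0% of its list. All 342 bp of the p35S:LFYTERE region lay inside the p35S:LFY region, which was 232 bp longer, and the midpoints were 81 bp apart. Coverage here was thus more reduced in p35S:LFYTERE than at most regions of the p35S:LFYTERE list, whose median CFR was 2.75, and less reduced than at most p35S:LFY regions, whose median was 7.40. The p35S:LFY midpoint was 686.5 bp from bHLH121 but 159.5 bp from the neighbouring gene AT3G19870, so the region cannot be given to one of them from its place. A further p35S:LFY region lay 5.81 kb away on the other side of bHLH121 (rank 108, CFR 21.8), was not shared with p35S:LFYTERE and was nearest to AT3G19850. Of these 2 well-ranked p35S:LFY regions around bHLH121, one was therefore shared and had a low CFR, and the other was not shared and had a high one. These 2 traits are tied, because the CFR divides by p35S:LFYTERE coverage, from which the p35S:LFYTERE list was called. No CFR in that list exceeded 7.27.

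BHLH100 (AT2G41240) had a p35S:LFY region 67 bp from the end of the gene with the higher coordinate, at chr2:17199355-17199687. It ranked 442 and had a CFR of 6.05, below the median of all p35S:LFY regions. BHLH100 was the nearest gene of this region, while 2 more regions at 4.94 kb and 8.11 kb had CFR values of 16.8 and 22.6 and were closer to other genes. The other 3 genes of this group had p35S:LFY regions only beyond 3 kb. bHLH38 and bHLH39 are neighbours and shared 1 region inside the gene SIP2;1, 4.16 kb from bHLH38 and 6.51 kb from bHLH39 (rank 972, CFR 5.62). bHLH39 had another at 8.55 kb (CFR 21.7) and BHLH101 one at 8.73 kb (CFR 3.93), and both of these were nearer to other genes.

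Of the ILR3 group, ILR3 itself (AT5G54680) had a p35S:LFY region at chr5:22214416-22214769, 2.34 kb away, with rank 698 and a CFR of 15.1. That midpoint was 340.5 bp from ATK3, a gene for a kinesin motor, and ATK3 was also the nearest gene of a region at 8.53 kb from ILR3 (CFR 4.80). bHLH34 (AT3G23210) had a p35S:LFY region at chr3:8287447-8287720, 2.5 kb away, with rank 1207 and a CFR of 5.30, and its nearest gene was ESE1, 358.5 bp from the midpoint. In both cases the region was thus several times closer to another gene than to the bHLH gene. bHLH104 was reached only beyond 3 kb, by a region inside ACD6 at 4.69 kb with a CFR of 33.5 and by another at 6.13 kb with a CFR of 9.89. For bHLH115, FIT and bHLH11, the nearest p35S:LFY regions were 24.1, 19.6 and 48.9 kb away.

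The PRE proteins are small helix-loop-helix proteins that promote cell elongation and counter growth-repressing bHLH proteins. BANQUO genes were described as repressed by the floral organ identity proteins AP3 and PI in petals. Of the 4 PRE members, 0 had a p35S:LFYTERE region and 2, PRE1 and BNQ2, had a p35S:LFY region within 3 kb. Over all genes the shares were 1.49% and 13.5%, and 4 members are too few to be told apart from them. PRE1 (AT5G39860) held its region inside the gene, at chr5:15957684-15958014, with rank 1497 and a CFR of 6.62. BNQ2 (AT5G15160) had its region 1.4 kb from the gene end with the lower coordinate, at chr5:4919670-4920026, with rank 502 and a CFR of 27.6. This was the highest CFR among the 8 member regions and was at or above 93.2% of the p35S:LFY list. BNQ2 was the nearest gene of that region, and the nearest p35S:LFYTERE region was 20.2 kb away. A second p35S:LFY region, 6.35 kb from BNQ2 and inside TDP1, had a CFR of 5.48. The CFR of the PRE1 region was at or above 42.9% of the list. One PRE region thus lay in the upper part of the list and the other near its middle. BS1 was reached at 7.42 kb (CFR 11.3), and the nearest p35S:LFY region to BNQ3 was 112 kb away.

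TMO5, listed under the symbol BHLH32 (AT3G25710), acts in the embryo and root downstream of the auxin response factor MONOPTEROS and, as a dimer with LHW, promotes the divisions that widen the vascular bundle. Its p35S:LFY region within 3 kb lay 1.48 kb from the gene end with the lower coordinate, at chr3:9367828-9368203, ranked 400 and had a CFR of 21.6. Beyond it on the same side came regions at 3.35 kb, chr3:9366027-9366266 (rank 1665, CFR 5.34), and at 4.35 kb, chr3:9364958-9365339 (rank 547, CFR 9.50). TMO5 was the nearest gene of all 3, which span 3246 bp, and their CFR values differed by 4.05-fold. Of all protein-coding genes, 22 (0.0802%) were the nearest gene within 10 kb of 3 or more p35S:LFY regions, and TMO5 was the only member among them. This cutoff of 3 equals the count of TMO5 itself, and the 10 kb window was added after seeing the data. The regions at 3.35 and 4.35 kb had no protein-coding gene within 3 kb. The nearest p35S:LFYTERE region was 30.6 kb from TMO5.

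**Figure D2:**
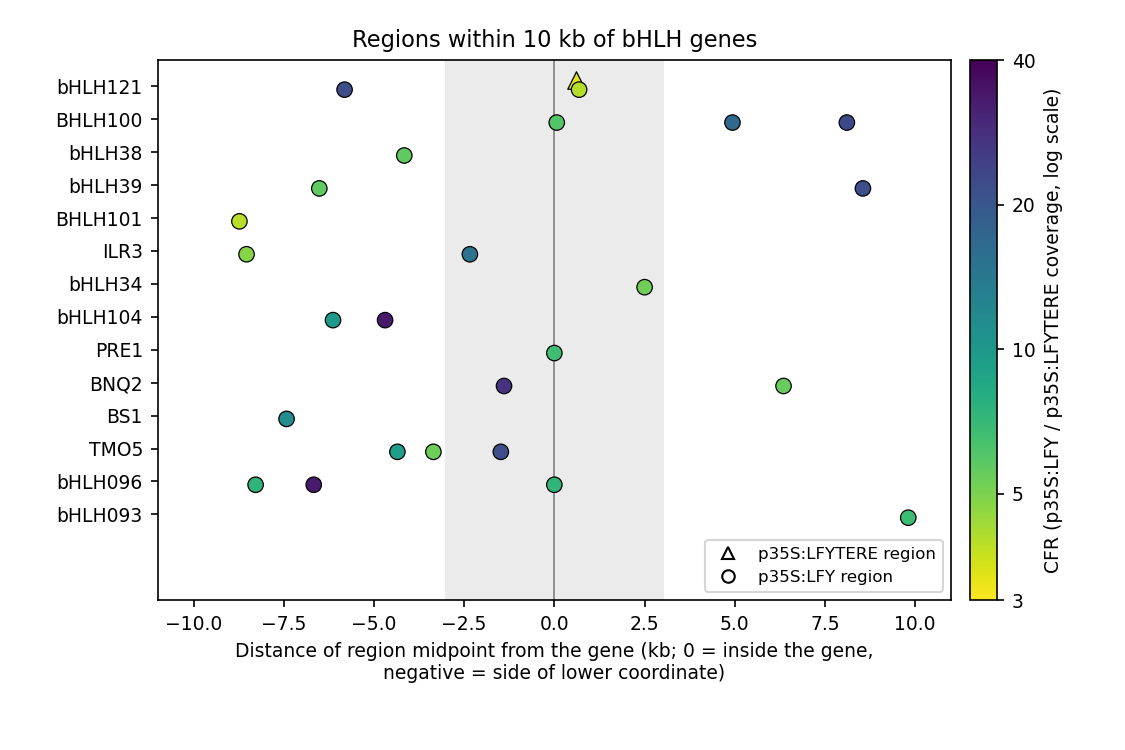
Places of all regions within 10 kb of a member, one row for each of the 14 members that have any, as the distance of the region midpoint from the gene in kb (0 means inside the gene, negative values the side of lower coordinate), coloured by CFR on a log scale. Triangles are p35S:LFYTERE regions, circles are p35S:LFY regions and the grey band is the 3 kb window, which holds 1 triangle and 8 circles. The 3 circles on 1 side of TMO5 and the overlapping triangle and circle at bHLH121 stand out.

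Of the 4 FAMA relatives, 0 had a p35S:LFYTERE region and 1, bHLH096 (AT1G72210), had a p35S:LFY region, beside 1.49% and 13.5% of all genes. The bHLH096 region lay inside the gene at chr1:27179440-27179758. It ranked 1169 with a CFR of 7.37, close to the median of the list. A region at 6.67 kb from bHLH096 had a CFR of 33.2 and another at 8.28 kb had a CFR of 7.44, and AT1G72200 was the nearest gene of both. bHLH093 had a p35S:LFY region at 9.81 kb (CFR 6.80), and for bHLH071 and bHLH094 the nearest were 24.9 and 27.5 kb away. TT8, which with MYB and WD40 partners switches on tannin synthesis in the seed coat, and BHLH92, known from salt and drought stress, had none within 10 kb. Their nearest p35S:LFY regions were 46.3 and 57.4 kb away.

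The 8 member regions of p35S:LFY had CFR values of 4.02 to 27.6 with a median of 7.0, a 6.86-fold span, while all 1954 regions had a median of 7.40 and quartiles of 4.82 and 13.0. Of the 8, 3 (37.5%) exceeded a CFR of 10, beside 35.3% of all regions. Their median rank was 600.0, beside 978 over the list, and 3 of the 8 (37.5%) were among the best 500 ranks, beside 25.6% of all regions. Their median width was 344 bp, beside 365 bp. Of the 8, 1 (12.5%) was shared with p35S:LFYTERE, beside 173 of all regions (8.85%). Members lay on both sides of the list's median CFR, 5 below it and 3 above. The 8 regions are all that the rule picks, with 1 CFR each, so no interval is given for their median. Among the best 1000 regions, the 5 member regions had a median CFR of 15.1, beside 8.02 over those 1000, so the members' median moves with the regions used.

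**Figure D3:**
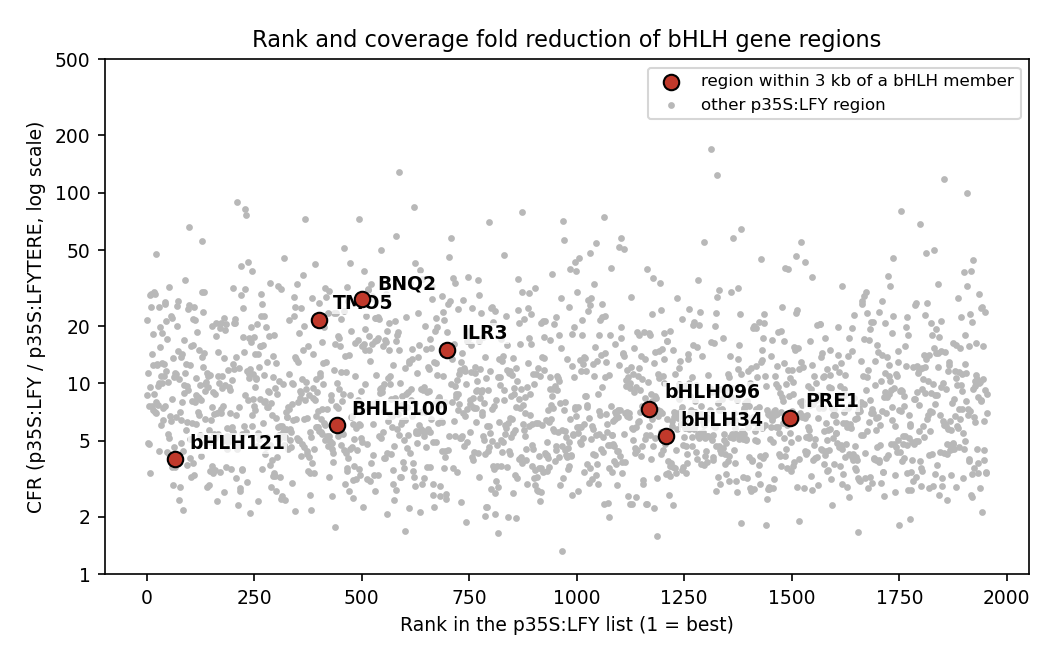
Rank of each p35S:LFY region (horizontal, 1 is best) against its CFR (vertical, log scale), with the 8 regions within 3 kb of a member in red and all others in grey. The 2 regions with CFR above 500 are not drawn. bHLH121 is at the well-ranked, low-CFR corner, and BNQ2, TMO5 and ILR3 are the 3 red points above a CFR of 10.

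The places of the 8 regions were mixed. They lay inside the gene for PRE1 and bHLH096, within 1 kb for BHLH100 and bHLH121, and at 1 to 3 kb for the other 4, while over all pairs of a gene and a p35S:LFY region 20.3% were inside, 32.9% within 1 kb and 46.9% at 1 to 3 kb. Outside the gene, 3 lay on the side of lower coordinate and 3 on the higher. For 5 of the 8 the member was the nearest gene (bHLH096, BHLH100, TMO5, BNQ2 and PRE1), and for bHLH121, bHLH34 and ILR3 another gene was nearer. Within 10 kb, 5 of the 22 members (22.7%) were the nearest gene of at least 1 p35S:LFY region, beside 6.47% of all protein-coding genes. Each bound member had 1 p35S:LFY region within 3 kb and none had more. Of the 3700 genes with at least 1 such region, 519 had at least 2, which is 1.89% of all genes.

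Among the 72 other bHLH genes of the role list, 1 (1.39%) had a p35S:LFYTERE region within 3 kb and 11 (15.3%) had a p35S:LFY region, shares close to the 1.49% and 13.5% of all genes. The 36.4% of the 22 members in p35S:LFY was higher than this, and the difference between the sets was not tested. AIF1, a small bHLH protein that represses growth in the brassinosteroid response, was the only gene of these 72 with a shared region. Its p35S:LFYTERE region ranked 120 with a CFR of 4.61, and the overlapping p35S:LFY region ranked 427 with a CFR of 4.78. Both lay 2.38 kb from AIF1 and closer to AT3G05810. AIF1 had 2 more p35S:LFY regions, with CFR values of 15.2 and 2.75, neither of them shared.

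Of the 72 other bHLH genes, the remaining 10 bound in p35S:LFY had several roles. In light and shade growth, 3 of 11 genes had a region. For HFR1, a repressor of the shade response, it lay 160.5 bp away (CFR 11.9), for PIF7, which promotes shade elongation, 2.44 kb away (CFR 10.5), and for PAR1, a small repressor, 652.5 bp away (CFR 4.24). In the jasmonate response, 2 of 7 genes had one, MYC2 inside the gene (CFR 2.82, in a stretch that AT1G32630 overlaps) and MYC3 at 1.44 kb (CFR 3.18) and inside the gene (CFR 9.73). Floral genes of the list were represented by HEC1, which acts in the gynoecium (rank 464, CFR 4.34), and by DYT1, which acts in the tapetum of the anther (rank 731, CFR 13.0). BEE1 of the brassinosteroid response (CFR 5.30), MUTE of the stomatal lineage (CFR 22.9) and SAC51 of the vascular group, with 2 regions inside the gene (CFR 11.7 and 10.6), made up the rest. No p35S:LFY region was within 3 kb of the 6 flowering time genes, the 7 root hair genes, 3 further trichome and flavonoid genes, 2 further PRE genes, or the single further genes for iron, petal size, seed and ER bodies. With 13.5% of all genes bound, groups of this size are too small to be told apart from that share.

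**Figure D4:**
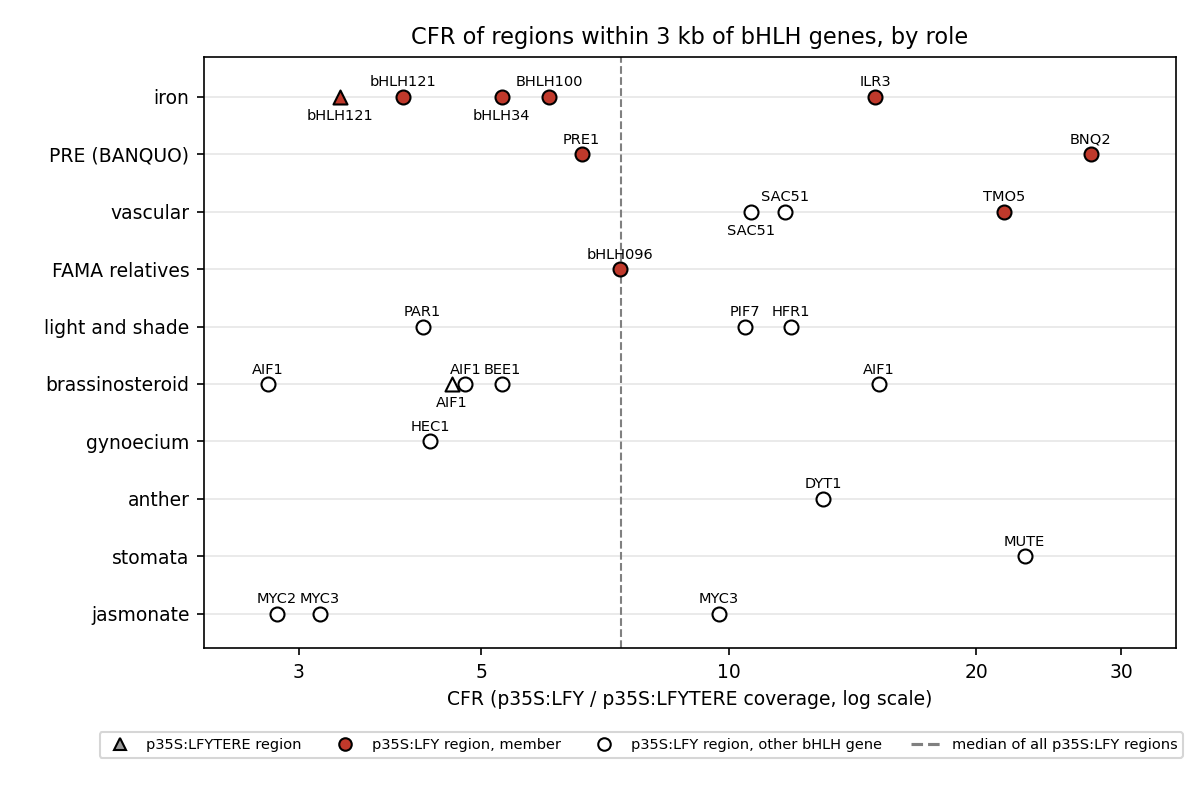
CFR (log scale) of each region within 3 kb of a bHLH gene, in rows by role, with members filled and the 72 other family genes open, triangles for p35S:LFYTERE and circles for p35S:LFY. The dashed line is the median of all p35S:LFY regions, 7.40. The highest CFR of the p35S:LFYTERE list is 7.27, so triangles can lie only left of this line, and the CFR of both exceeds the median of their own list, 2.75. Each row with more than 1 gene except the vascular row has p35S:LFY points left of the line.

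The 15 p35S:LFY regions of these 11 genes had a median CFR of 9.73 (quartiles 4.29 and 11.8), and 1 (6.67%) was shared with p35S:LFYTERE. Their values ran from 2.75 to 22.9 and overlapped those of the 8 member regions over most of that range. Within a role CFR also varied, from 4.02 to 15.1 in the iron network and from 2.75 to 15.2 at AIF1 alone.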

How the data were processed

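Chromatin immunoprecipitation sequencing of 6 libraries (3 genotypes, 2 each) had been mapped by the authors to TAIR 10, the build named in the submitters' processing notes, and regions were kept when they passed in all 4 comparisons of transgenic with Col-0 replicates. The deposited rank is a score without unit that orders 1 list. The deposited CFR is a linear ratio of scaled coverages that the authors computed. Depth per library was not used here, so no interval is given.

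Gene names and ends came from a RefSeq table of TAIR10.1 without strand or sequence, and distances rest on it. As a check, 56.3% of p35S:LFY midpoints lay outside genes, against 51.9% and 49.3% after moving them by 500 bp up or down. Members, gene lists, roles and the window were chosen with earlier results of these data known, and the grouping of members by role was written after their values were seen. Named were all members with a region in either list, with coordinates, and all bound genes of the role and partner lists. Unbound members and regions beyond 3 kb were named after their values were seen. Overlap was counted at 1 bp. Alternatives were other windows (1 kb, inside the gene, and 10 kb, which was added after seeing the data) and any base in the window. The nearest gene only, fewer regions and stricter overlap were also tried. A further setting added 12 genes whose symbol or a synonym contains bHLH or helix-loop-helix. Python 3.11.15, numpy 2.4.6, pandas 2.3.3 and matplotlib 3.10.9 were used, and the counting steps were tested on simulated data.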

Additional observations from a re-analysis of the deposited data

How the results depend on the processing

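The p35S:LFYTERE count of 1 member was 0 when the midpoint had to lie inside the gene (all genes 0.302%). The count was also 0 when only the nearest gene was counted (all genes 0.641%), since bHLH121 then loses its region to AT3G19870. It stayed at 1 with the 1 kb, 10 kb, any-base, better-ranked-list and wider-family settings. The p35S:LFY count of 8 members was 4 within 1 kb, 2 inside the gene, 5 for the nearest gene only (all genes 6.34%), 5 with the best 1000 regions (all genes 7.51%), 1 with as many best regions as the p35S:LFYTERE list holds, and 14 within 10 kb, a window added after seeing the data. With 176 regions in each list, bHLH121 was thus the 1 member bound in both. The share of all genes with the best 176 p35S:LFY regions is not given here. The count was 8 with any base of a region in the window (all genes 14.1%). It was 10 of 34 genes when 12 more were added. Of those 12 genes, 2 were bound, IBH1 and PAR1, beside 13.5% of all genes. The median CFR of 7.0 was 6.34 within 1 kb, 7.37 for the nearest gene, 8.47 within 10 kb and 15.1 with the best 1000 regions, whose own median was 8.02. The shared member region stayed at 1 in the settings tried. No paired analysis was possible because the lists give no rank or CFR per replicate. For the same reason, leaving out a replicate was not run. Motif counts in promoters were not run because no sequence was used here.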

Other observations

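Genes whose proteins act with bHLH proteins were read from a list of 31 partners. None had a p35S:LFYTERE region within 3 kb, and 6 (19.4%) had a p35S:LFY region, beside 1.49% and 13.5% of all protein-coding genes. Of the 12 JAZ repressors, which hold MYC proteins inactive until jasmonate removes them, 3 had a region: JAZ2, listed as TIFY10B, at 975.5 bp (rank 504, CFR 7.22), JAZ5 inside the gene (rank 863, CFR 24.3) and JAZ8 at 1.54 kb (rank 1835, CFR 19.4). Of 5 DELLA repressors, which hold growth-promoting bHLH proteins of the PIF group inactive, RGL1 had a region at 2.1 kb (rank 969, CFR 71.3). That CFR was at or above 99.2% of the list. Of the 8 genes for partners in the trichome and flavonoid complex, PAP1, an activator of anthocyanin synthesis, had a region at 1.32 kb (rank 303, CFR 8.76). CPC, a small MYB repressor of trichomes, had 2, at 1.92 kb (rank 546, CFR 5.16) and at 650 bp (rank 919, CFR 13.7). None of the 6 photoreceptor genes had a region within 3 kb. PAP1, JAZ5 and RGL1 were the nearest genes of their regions, as CPC was of its closer one, and JAZ2 and JAZ8 were not.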
